A study of Mus musculus with 28 samples.

Results

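The expression of 10 genes of the interleukin-1 (IL-1) family and of the inflammasome was followed in mouse mesothelioma tumors after chemotherapy, immune checkpoint blockade (ICB) or both. The genes were chosen by name among the 55341 gene names of the count matrices. They comprise the ligands Il1a, Il1b, Il18 and Il33, the antagonists and decoys Il1rn, Il18bp and Il1r2, the signaling receptor Il1r1, and the inflammasome genes Nlrp3 and Casp1. All 10 were present in both matrices, and all 10 passed the filter on low counts that left 18521 genes for testing.

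RNA came from 28 tumors of AB1-HA, an AB1 mesothelioma line that carries the influenza hemagglutinin antigen, each grown under the skin of a different BALB/c.AusBP female mouse of 8 to 10 weeks of age. Treatment began at a tumor area of 20 to 25 mm2, and tumors were taken 7 days later. The 4 control tumors received PBS. The 5 ICB tumors received 100 µg of anti-CTLA-4 with 100 µg of anti-PD-L1, followed by 2 more doses of anti-PD-L1 given 2 days apart. The 5 tumors of the 5-FU group received 75 mg/kg of 5-fluorouracil, an antimetabolite, into a vein. The 4 tumors of the cisplatin group received 6 mg/kg of this platinum compound into the peritoneum. In the 5-FU+ICB and cisplatin+ICB groups, with 5 tumors each, the drug and the antibodies were combined at these doses. All groups carry the same single cell line, so each group describes 1 transplanted tumor model and not mesothelioma at large.

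IL-1α and IL-1β, the products of Il1a and Il1b, signal through the same receptor, IL-1R1, and drive the expression of chemokines, acute phase proteins and adhesion molecules. IL-1β and IL-18 are made as inactive precursors and are cleaved by caspase-1 (Casp1) within inflammasomes, of which the NLRP3 complex is the best known, whereas IL-33 is a nuclear protein of barrier and stromal cells that acts as an alarm signal when cells are damaged. The family is held in check at several levels. The IL-1 receptor antagonist (Il1rn) occupies IL-1R1 without signaling, the decoy receptor IL-1R2 (Il1r2) captures IL-1, and the IL-18 binding protein (Il18bp) neutralizes IL-18. RNA levels do not show cleavage or secretion, and neither was measured in these data.

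Total counts per tumor lay between 23541733 and 33950805, and 3 counts, taken as the floor, corresponded to 0.0884 to 0.127 CPM, counts scaled to a common library size. Levels below are CPM after scaling by edgeR's TMM factors. In bulk tumor RNA, fewer cells of a type and less RNA per cell cannot be told apart. Ptprc, the pan-leukocyte gene that encodes CD45, was at 75.0 to 105 CPM in PBS tumors, 245 to 443 in ICB, 97.7 to 331 in 5-FU, 77.3 to 155 in cisplatin, 105 to 723 in 5-FU+ICB and 118 to 361 in cisplatin+ICB. Of the mesothelial markers, Msln reached 271 to 358 CPM in PBS tumors, while Wt1, Upk3b, Krt18 and Krt19 stayed under 0.4 CPM there, so the mesothelial label rests on Msln. A total of 3 tumors stood apart from their groups in genes outside the family. ICB replicate 2 had a summed keratinocyte marker level of 467 CPM, 5-FU+ICB replicate 5 had 0.50 CPM of Msln and a summed B cell marker level of 589 CPM, and cisplatin+ICB replicate 1 had 654 CPM of Msln and a summed fibroblast marker level of 858 CPM. Calls of the 10 genes that changed without these tumors are given with and without them.

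In the GRCm38 assembly with the GENCODE M21 annotation, Il1a lies at chr2:129299610-129309972 and Il1b at chr2:129364570-129371139, both on the minus strand, and Il1rn at chr2:24336853-24351494 on the plus strand of the same chromosome. The receptor genes Il1r2 (chr1:40074079-40125231) and Il1r1 (chr1:40225080-40317257) are both on the plus strand, and Casp1 (chr9:5298517-5307265) and Il18 (chr9:50554827-50581840) share a chromosome and the plus strand. Il18bp (chr7:102014885-102018690) is on the minus strand, and Nlrp3 (chr11:59541568-59566956) and Il33 (chr19:29925114-29960718) are on the plus strand. Il1a overlaps Gm14023, Il1b overlaps the antisense RNA Il1bos, Il1r2 overlaps Gm16894, Il18bp overlaps Numa1, and Il18 overlaps Bco2 and Tex12, each on the opposite strand. The strand setting of the counting is not given in the sources used here, so reads of these pairs may not have been told apart. Il1r2 also overlaps Gm37347, and Il1r1 overlaps Gm38070, each on the same strand, where a strand setting would not separate reads.

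The promoters of Il1a, Il1b, Il1rn, Il18bp and Il33 are shown because these ligands and antagonists carry most of the changes described further on. Each line gives the 250 bases before an annotated RefSeq start (GRCm38.p6), read 5′ to 3′ in the direction of transcription, with the matches to the searched motifs in capitals. Il1a is read from chr2:129309973-129310222, minus strand, Il1b from chr2:129371140-129371389, minus strand, and Il1rn from the first of its 3 starts, chr2:24336610-24336859, plus strand. Il18bp is read from chr7:102018233-102018482, minus strand, and the second of the 2 Il33 starts from chr19:29945540-29945789, plus strand.
Il1a: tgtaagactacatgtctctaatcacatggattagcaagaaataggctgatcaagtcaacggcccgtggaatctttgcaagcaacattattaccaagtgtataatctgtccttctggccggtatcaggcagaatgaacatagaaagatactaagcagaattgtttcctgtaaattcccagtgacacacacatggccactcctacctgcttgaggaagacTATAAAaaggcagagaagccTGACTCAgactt
Il1b: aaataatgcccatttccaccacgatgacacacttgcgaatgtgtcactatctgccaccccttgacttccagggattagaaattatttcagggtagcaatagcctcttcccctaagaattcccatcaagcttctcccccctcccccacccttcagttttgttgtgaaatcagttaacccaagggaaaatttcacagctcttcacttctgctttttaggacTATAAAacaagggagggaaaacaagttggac
Il1rn: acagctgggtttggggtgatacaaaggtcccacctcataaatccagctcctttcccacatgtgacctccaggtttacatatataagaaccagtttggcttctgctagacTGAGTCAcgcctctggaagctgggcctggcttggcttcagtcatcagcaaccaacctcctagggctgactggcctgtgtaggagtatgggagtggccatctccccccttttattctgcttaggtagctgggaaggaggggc
Il18bp: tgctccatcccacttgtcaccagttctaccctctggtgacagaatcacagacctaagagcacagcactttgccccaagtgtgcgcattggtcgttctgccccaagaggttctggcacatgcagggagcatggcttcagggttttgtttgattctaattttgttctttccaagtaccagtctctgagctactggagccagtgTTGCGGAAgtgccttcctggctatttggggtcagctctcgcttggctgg
Il33: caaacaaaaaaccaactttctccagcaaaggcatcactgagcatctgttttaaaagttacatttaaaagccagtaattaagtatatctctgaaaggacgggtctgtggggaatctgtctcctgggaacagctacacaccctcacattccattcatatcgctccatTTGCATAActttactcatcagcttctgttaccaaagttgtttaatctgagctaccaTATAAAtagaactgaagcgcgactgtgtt

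The search covered both strands for TATAAA (the TATA box), TGANTCA (AP-1), TTGCNNAA (C/EBP), TTCNNNGAA (the GAS element), and by name for the core of the interferon-stimulated response element and the NF-kB consensus, and no 2 matches overlapped. Il1a, Il1b and the Il33 start shown had a TATAAA match that ended 27, 26 and 24 bases before the start, and 12.3% of 32536 RefSeq promoter windows of this length held such a match. The AP-1 letters stood 12 to 6 bases before the start of Il1a and 141 to 135 bases before that of Il1rn, and 6.73% of all windows held them. C/EBP letters stood 49 to 42 bases before the Il18bp start and 85 to 78 bases before this Il33 start, beside 9.57% of all windows. Among windows not shown, the NF-kB consensus stood in 1 of the 2 windows of Nlrp3 and 1 of the 2 of Il1r1, beside 7.28% of all windows. GAS letters stood in the Il1r2 window, beside 7.04%. Further matches stood in Il18 (TATAAA), the other Il1r1 start (C/EBP) and the first Il33 start (TATAAA). The later Il1rn starts held no match, and the single window of Casp1 held none of the searched letters. All 10 genes had an entry, with 15 starts in all.

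Per kilobase of merged exons, the scale on which genes can be set beside each other, Casp1 had the highest level in PBS tumors at 52.9 CPM per kb. It was followed by Nlrp3 at 17.3, Il1r1 at 13.3, Il1b at 11.9 and Il33 at 8.99 CPM per kb. Il18bp, Il18, Il1rn and Il1r2 lay between 1.69 and 3.00 CPM per kb, and Il1a was lowest at 0.302. In ICB tumors Casp1 still led at 78.4 CPM per kb, but Il1b at 53.3, Il18bp at 51.1 and Il1rn at 24.3 had moved above Nlrp3 at 21.3. With 5-FU+ICB Il33 came second at 48.0 CPM per kb, after Casp1 at 72.5.

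**Figure D1:**
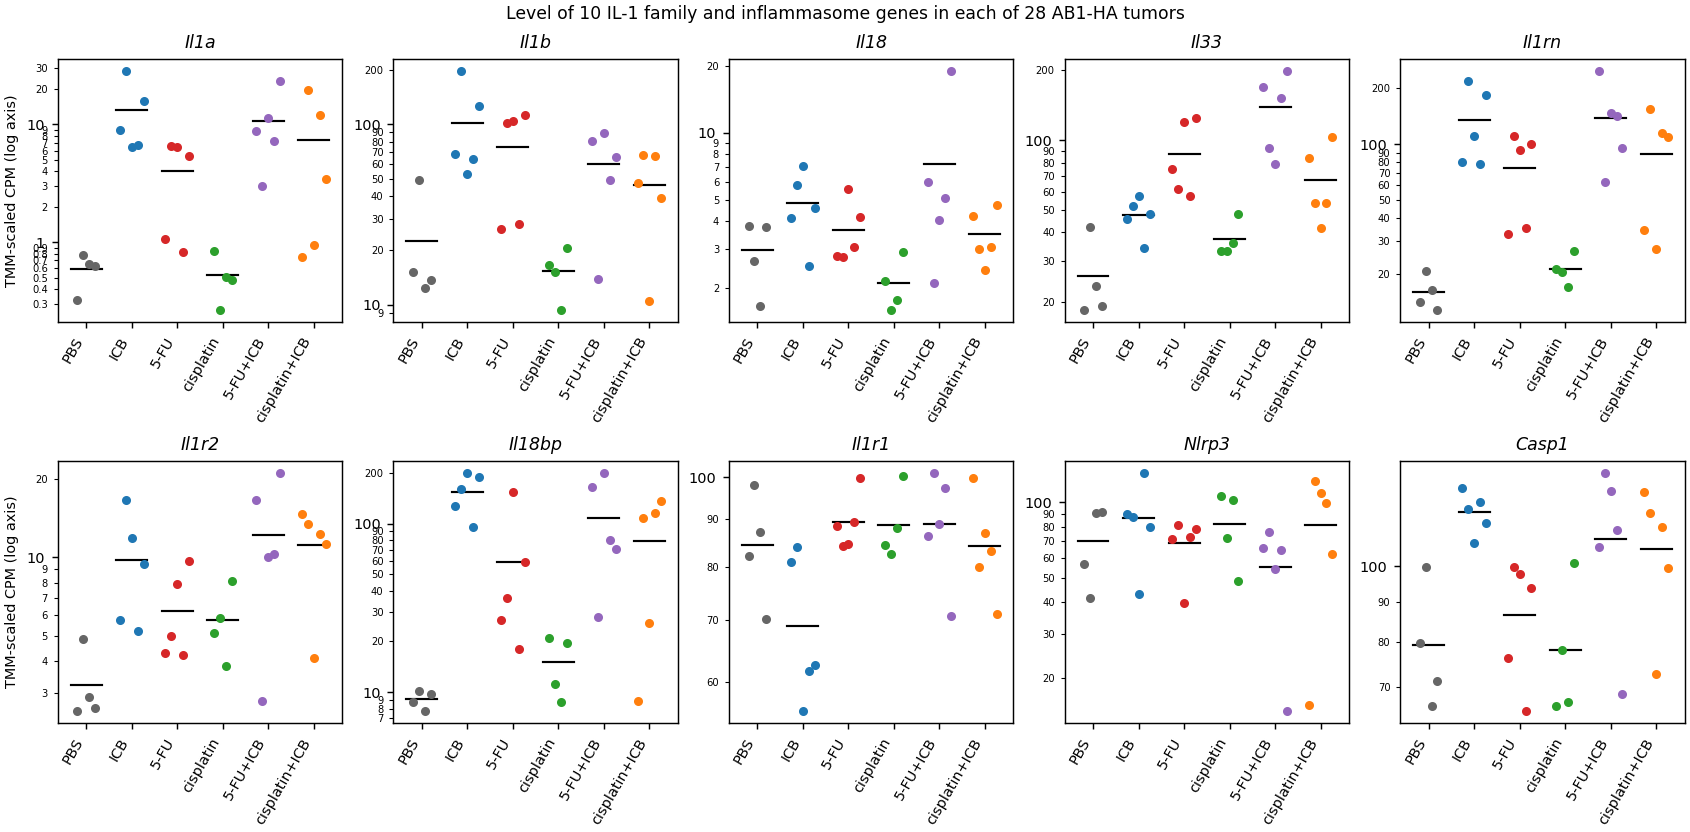
Level of each gene in each of 28 tumors. The vertical axes show TMM-scaled CPM on log axes with a separate range for each gene, points are tumors, colors are treatment groups and bars are group means. Il1a, Il1rn and Il18bp in all 5 ICB tumors lie above all 4 PBS tumors, whereas Il1r1 spans only 55.8 to 84.1 CPM in ICB and 70.3 to 98.0 CPM in PBS tumors.

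Against PBS, treatments raised ligands and their antagonists and lowered no member by the test, although scaling to the leukocyte gene Ptprc, given further on, turned the direction of some and called others lower. Of the 18521 genes, 2875 were called higher and 5183 in either direction with ICB, and 3495 and 5812 with 5-FU+ICB. The absence of members called lower is therefore not read as a trait of the family. ICB raised 7 of 10 members (Il1a, Il1b, Il33, Il1rn, Il1r2, Il18bp and Casp1), where 15.5% of all genes tested were called higher. 5-FU raised 3 (Il33, Il1rn and Il18bp), beside 2.84% of all genes. 5-FU+ICB raised 6 (Il1a, Il18, Il33, Il1rn, Il1r2 and Il18bp), beside 18.9%, and cisplatin+ICB raised 5 (Il1a, Il33, Il1rn, Il1r2 and Il18bp), beside 3.42%. A gene was called when edgeR's quasi-likelihood test gave an adjusted p under 0.05 and the log2 fold change exceeded 0.5 in size. The 2 groups did not overlap at all for 6 of 10 members in ICB against PBS, beside 36.5% of all genes, for 4 in 5-FU against PBS, beside 26.4%, for 4 in 5-FU+ICB against PBS, beside 24.9%, and for 1 in cisplatin+ICB against PBS, beside 8.08%. All 5 comparisons share the same 4 PBS tumors, so their values for a gene are not independent of each other.

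Cisplatin alone raised or lowered 0 of 10 members. EdgeR also called 0% of all genes in that comparison, 1.6% of all genes and 0 members had an unadjusted p under 0.05, and DESeq2 called 3 of all genes and 0 members. The lowest adjusted p of a member was 1. At 4 tumors against 4 this does not show that cisplatin left the genes as they were.

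**Figure D2:**
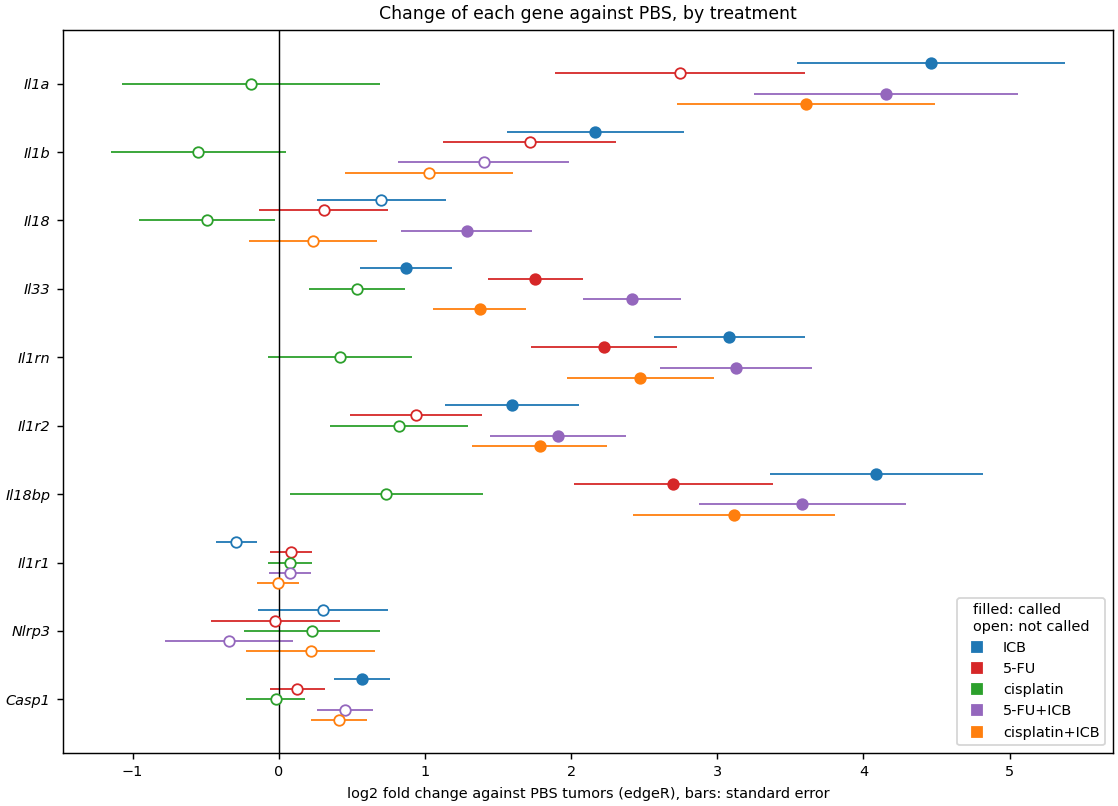
Log2 fold change of each gene against PBS in edgeR's fit. The horizontal axis is the log2 fold change, points are the 5 treatments, bars are standard errors, and filled points passed the call. Il1a, Il1rn and Il18bp have their highest values, from 2.47 to 4.46, in the 3 groups that received ICB, while the points of Il1r1 and Nlrp3 are all open.

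Il1a encodes the IL-1 ligand that is active without cleavage. Its level was 0.324, 0.780, 0.651 and 0.631 CPM in the 4 PBS tumors and 8.995, 28.4, 6.39, 6.73 and 15.8 CPM in the 5 ICB tumors. The ranges were far apart. Mean levels were 0.596 ± 0.193 CPM (SD, n = 4) and 13.3 ± 9.29 CPM (SD, n = 5), and the log2 fold change was 4.46 ± 0.92 (SE; adjusted p = 0.00215) in edgeR. With cisplatin, Il1a was at 0.844, 0.267, 0.503 and 0.474 CPM, within the range of PBS apart from its lowest and highest tumor.

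The 5-FU tumors split into 2 levels of Il1a, with 1.07, 6.54, 6.41, 0.825 and 5.41 CPM. Replicates 1 and 4 lay just above PBS and the other 3 near the lowest ICB tumors, and the log2 fold change was 2.74 ± 0.86 (SE; adjusted p = 0.0597), which missed the threshold in edgeR. In 5-FU+ICB tumors Il1a stood at 8.82, 3.01, 11.3, 7.21 and 23.5 CPM, a log2 rise of 4.15 ± 0.90 (SE; adjusted p = 0.00251). Cisplatin+ICB tumors again split, with 0.742, 19.5, 0.943, 12.1 and 3.47 CPM, of which replicates 1 and 3 were at or near the PBS level. The log2 fold change was 3.61 ± 0.88 (SE; adjusted p = 0.0247), and the call was lost without PBS replicate 1, 3 or 4 or cisplatin+ICB replicate 2 or 4 (adjusted p = 0.0606 to 0.106). The order of the group means was ICB, 5-FU+ICB, cisplatin+ICB, 5-FU, PBS and cisplatin, and the ranges of neighboring groups overlapped except between 5-FU and PBS.

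Il1b, the ligand cleaved by caspase-1, measured 15.2, 49.2, 12.4 and 13.7 CPM in PBS tumors. Replicate 2 alone lay at more than 3 times the level of the others. ICB tumors measured 68.7, 197, 52.9, 63.9 and 125 CPM, all above that tumor, and the log2 fold change was 2.17 ± 0.60 (SE; adjusted p = 0.0119). Leaving out any single tumor kept this call, with values of 1.78 to 2.88, but on the Ptprc scale, given further on, it was lost.

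In the 5-FU group Il1b was 26.4, 101, 104, 28.1 and 113 CPM, with the same replicates 1 and 4 low as for Il1a, and its log2 fold change of 1.72 ± 0.59 (SE; adjusted p = 0.0799) was not called. The 5-FU+ICB tumors measured 81.1, 13.9, 89.6, 48.9 and 65.6 CPM and the difference of 1.40 ± 0.58 (SE; adjusted p = 0.065) was not called either. Replicate 2 of that group was at the PBS level. Cisplatin tumors had 16.6, 15.2, 9.39 and 20.6 CPM and cisplatin+ICB tumors 47.1, 67.7, 10.5, 66.4 and 38.9 CPM. The latter were not called against PBS (adjusted p = 0.299 in edgeR), and 1 tumor, replicate 3, was below the lowest PBS tumor. From highest to lowest mean the groups were ICB, 5-FU, 5-FU+ICB, cisplatin+ICB, PBS and cisplatin, and all neighbors overlapped.

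Il33 encodes the nuclear alarm cytokine, which is read by the receptor ST2. It was the only member called between 5-FU+ICB and ICB alone. PBS tumors had 18.6, 42.4, 23.6 and 19.2 CPM and cisplatin tumors 33.1, 33.3, 36.2 and 47.9 CPM. ICB brought it to 45.8, 51.9, 57.6, 34.2 and 47.9 CPM, a log2 fold change of 0.87 ± 0.32 (SE; adjusted p = 0.0409). That call was lost when any of PBS replicates 1, 3 and 4 or ICB replicates 1, 2, 3 and 5 was left out (adjusted p = 0.0532 to 0.125). Without the 3 tumors that stood apart it was 0.85 (adjusted p = 0.052) in edgeR.

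After 5-FU alone Il33 was higher, at 74.8, 61.6, 120.0, 57.6 and 124 CPM, all above the PBS range. The log2 fold change was 1.76 ± 0.33 (SE; adjusted p = 0.00657), and only leaving out PBS replicate 1 ended the call (1.62, adjusted p = 0.0525). The 5-FU+ICB group had the highest mean of the 6 groups, with 169.5, 92.4, 79.1, 152 and 199 CPM, and the log2 rise against PBS was 2.41 ± 0.34 (SE; adjusted p = 0.000319). Every one of these tumors exceeded every ICB tumor. Cisplatin+ICB tumors measured 83.8, 53.6, 42.0, 53.5 and 103 CPM, a log2 rise of 1.37 ± 0.32 (SE; adjusted p = 0.0217) that was lost without PBS replicate 1, 3 or 4 or cisplatin+ICB replicate 5 (adjusted p = 0.0595 to 0.0994).

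Set directly against ICB, 5-FU+ICB raised 1 of 10 members, Il33, where 0.0972% of all genes were called higher and 2.3% of all genes had groups that did not overlap. Mean levels of 47.5 ± 8.68 CPM (SD, n = 5) with ICB and 138 ± 51.1 CPM (SD, n = 5) with the combination gave a log2 fold change of 1.54 ± 0.30 (SE; adjusted p = 0.0237). Leaving out ICB replicate 1, 2, 4 or 5 or 5-FU+ICB replicate 1 or 5 ended the call (adjusted p = 0.0516 to 0.0946), and over all 10 single omissions the log2 fold change ranged from 1.38 to 1.69. On the Ptprc scale it was 1.71 (adjusted p = 0.0841), and from the 2 compared groups alone 1.55 (adjusted p = 0.177), and neither was called. Without the 3 tumors that stood apart the value was 1.42 (adjusted p = 0.0952) in edgeR. Against 5-FU alone the combination was not called (adjusted p = 0.308), nor was it against cisplatin+ICB (1.04 ± 0.30 SE, adjusted p = 0.0706). The group means of Il33 fell in the order 5-FU+ICB, 5-FU, cisplatin+ICB, ICB, cisplatin and PBS, with overlapping neighbors throughout.

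Il18, a ligand that drives interferon-γ in T and NK cells, was among the least abundant members. It had 3.81, 2.64, 1.66 and 3.75 CPM in PBS tumors, 4.12, 5.83, 7.07, 2.53 and 4.61 CPM in ICB tumors and 2.79, 2.77, 5.57, 3.06 and 4.19 CPM in 5-FU tumors. These ranges overlapped. In cisplatin tumors it had 2.16, 1.60, 1.78 and 2.90 CPM and in cisplatin+ICB tumors 4.24, 3.00, 2.42, 3.06 and 4.74 CPM. The 5-FU+ICB tumors had 6.03, 2.11, 4.05, 5.11 and 19.0 CPM, in which replicate 5 alone was far above all other tumors. The log2 fold change of 5-FU+ICB against PBS was 1.29 ± 0.45 (SE; adjusted p = 0.0315), and it was 0.54 (adjusted p = 0.243) without that tumor, one of those that stood apart. The call was also lost without PBS replicate 2 (1.23, adjusted p = 0.0794) or PBS replicate 3 (1.08, adjusted p = 0.091). Group means descended from 5-FU+ICB through ICB, 5-FU, cisplatin+ICB and PBS to cisplatin, with overlapping ranges at each step.

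Il1rn, the receptor antagonist, was called in more comparisons against PBS than any ligand other than Il33. PBS tumors had 14.0, 20.5, 16.3 and 12.8 CPM, a narrow range, and cisplatin tumors 21.2, 20.3, 16.9 and 26.4 CPM. In ICB tumors Il1rn reached 80.3, 220.2, 111, 78.4 and 184 CPM. No ICB tumor was near the PBS range, the means were 15.9 ± 3.43 CPM (SD, n = 4) and 135 ± 64.1 CPM (SD, n = 5), and the log2 fold change was 3.08 ± 0.52 (SE; adjusted p = 0.000653).

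The 5-FU tumors measured 32.5, 111, 93.5, 35.1 and 99.7 CPM, all above PBS, with replicates 1 and 4 again the lowest. The log2 rise was 2.22 ± 0.50 (SE; adjusted p = 0.019), and it was no longer called without PBS replicate 1, 3 or 4 or 5-FU replicate 5 (adjusted p = 0.0547 to 0.0853). In 5-FU+ICB tumors it was 248, 62.7, 147, 142 and 94.9 CPM, a log2 rise of 3.13 ± 0.52 (SE; adjusted p = 0.000702), and in cisplatin+ICB tumors 34.5, 155, 27.0, 115 and 109 CPM, a log2 rise of 2.47 ± 0.50 (SE; adjusted p = 0.00962). The latter call was lost without PBS replicate 1 or 4 (adjusted p = 0.0525 to 0.0611). In both combinations every tumor was above the PBS range. Means ran from 5-FU+ICB through ICB, cisplatin+ICB, 5-FU and cisplatin to PBS, and 5-FU and cisplatin were the only neighbors whose ranges did not overlap, although that comparison was not called (1.81 ± 0.49 SE, adjusted p = 0.0925).

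Il18bp, whose product neutralizes IL-18, had a narrow range in PBS tumors, at 8.76, 10.1, 7.70 and 9.80 CPM. ICB tumors had 127, 160.3, 201, 96.0 and 189 CPM, at least 9 times the highest PBS tumor. Its mean was 9.09 ± 1.09 CPM (SD, n = 4) with PBS and 155 ± 43.5 CPM (SD, n = 5) with ICB, which gave a log2 fold change of 4.09 ± 0.73 (SE; adjusted p = 0.000802). With 5-FU it measured 27.0, 36.1, 155, 18.1 and 59.3 CPM, all above PBS but spread widely, and the log2 rise of 2.70 ± 0.68 (SE; adjusted p = 0.029) was lost without any PBS tumor or 5-FU replicate 3 or 5 (adjusted p = 0.0663 to 0.109). Without 5-FU replicate 3, the highest, it was 1.95 (adjusted p = 0.102).

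In 5-FU+ICB tumors Il18bp was 166, 27.9, 199, 80.4 and 71.1 CPM, a log2 rise of 3.58 ± 0.71 (SE; adjusted p = 0.00155). In cisplatin tumors it had 21.1, 11.1, 8.72 and 19.6 CPM. The cisplatin+ICB tumors had 8.91, 108, 25.9, 115 and 136 CPM, and without replicate 1, which stood apart, the lowest was replicate 3. The log2 rise was 3.11 ± 0.69 (SE; adjusted p = 0.0165), it was 3.40 (adjusted p = 0.000755) without replicate 1, and it was lost without PBS replicate 1, 3 or 4 (adjusted p = 0.0582 to 0.0815). The order of means was ICB, 5-FU+ICB, cisplatin+ICB, 5-FU, cisplatin and PBS, and every neighboring pair overlapped.

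Il1r2, the decoy receptor, was low in PBS tumors at 2.55, 4.85, 2.89 and 2.62 CPM. It was 5.72, 16.6, 11.9, 5.21 and 9.45 CPM in ICB tumors, all above PBS, with a log2 fold change of 1.60 ± 0.46 (SE; adjusted p = 0.0145). The 5-FU+ICB tumors had 16.6, 2.79, 10.0, 10.3 and 21.2 CPM, a log2 rise of 1.91 ± 0.47 (SE; adjusted p = 0.0048) although replicate 2 lay within the PBS range. In cisplatin+ICB tumors it was 14.6, 13.5, 4.10, 12.3 and 11.2 CPM, of which replicate 3 alone fell within the PBS range. This log2 rise of 1.78 ± 0.46 (SE; adjusted p = 0.0294) was lost without PBS replicate 1, 3 or 4 or cisplatin+ICB replicate 2, 4 or 5 (adjusted p = 0.0601 to 0.118). Tumors given 5-FU had 4.27, 4.96, 7.88, 4.22 and 9.64 CPM and tumors given cisplatin 5.12, 5.83, 3.82 and 8.09 CPM, and neither group was called. Means descended from 5-FU+ICB through cisplatin+ICB, ICB, 5-FU and cisplatin to PBS, each overlapping the next.

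Il1r1, the signaling receptor that the antagonist occupies, varied least between groups. Its levels were 82.1, 98.0, 87.2 and 70.3 CPM in PBS tumors and 80.9, 84.1, 55.8, 61.8 and 62.6 CPM in ICB tumors, and ranged over 84.3 to 99.9 CPM in 5-FU, 82.7 to 100.3 in cisplatin, 70.8 to 101 in 5-FU+ICB and 71.1 to 99.8 in cisplatin+ICB tumors. It was called in none of the 11 comparisons between groups, but on the Ptprc scale it was called lower in ICB against PBS and in 5-FU+ICB against PBS, as were 74.2% and 62.4% of all genes. Its lowest unadjusted p was 0.0122, in 5-FU+ICB against ICB, with a log2 fold change of 0.37 ± 0.14 (SE; adjusted p = 0.334) in edgeR. The order was 5-FU, 5-FU+ICB, cisplatin, PBS, cisplatin+ICB and ICB, and the ranges of all neighbors overlapped.

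Nlrp3, the sensor of its inflammasome, was not called in any comparison either, but on the Ptprc scale it too was called lower in ICB against PBS and in 5-FU+ICB against PBS, like most genes tested. It had 56.7, 41.8, 90.2 and 91.2 CPM in PBS tumors and 90.1, 87.1, 43.4, 131 and 79.9 CPM in ICB tumors. Ranges were 39.9 to 81.4 CPM in 5-FU, 48.9 to 105 in cisplatin, 14.8 to 76.4 in 5-FU+ICB and 15.7 to 122 in cisplatin+ICB tumors. The lowest levels of the series, 14.8 and 15.7 CPM, belonged to 5-FU+ICB replicate 5 and cisplatin+ICB replicate 1, both of which stood apart in other genes. The interval of its change against PBS is wide, with standard errors of 0.44 to 0.46 on the log2 scale. Means ran from ICB through cisplatin, cisplatin+ICB, PBS and 5-FU to 5-FU+ICB, and neighboring ranges overlapped.

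Casp1, the protease of inflammasomes, was already high in PBS tumors at 79.7, 99.8, 66.1 and 71.2 CPM. It rose moderately in ICB tumors, to 126, 119, 107, 121 and 114 CPM, none of which reached down to the PBS range. The log2 fold change was 0.57 ± 0.19 (SE; adjusted p = 0.0306), and leaving out PBS replicate 1, 3 or 4 or ICB replicate 1 or 2 ended the call (adjusted p = 0.0525 to 0.0875). For Casp1 the 5-FU+ICB tumors had 106, 132, 125, 111 and 68.4 CPM (adjusted p = 0.0679) and in cisplatin+ICB tumors 125, 117, 72.8, 112 and 99.6 CPM (adjusted p = 0.204), and neither was called. Without the 3 tumors that stood apart, 5-FU+ICB against PBS was called (0.60, adjusted p = 0.0163). Tumors given a single drug ranged over 65.0 to 99.9 CPM with 5-FU and 66.0 to 101 CPM with cisplatin. The means were ordered as ICB, 5-FU+ICB, cisplatin+ICB, 5-FU, PBS and cisplatin, again with overlapping neighbors.

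The remaining comparisons gave 0 calls among the 10 members. For cisplatin+ICB against ICB edgeR called 0% of all genes. Il1b was lower (-1.14 ± 0.54 SE, adjusted p = 0.28) and Il1r1 higher (0.29 ± 0.14 SE, adjusted p = 0.281) at unadjusted p of 0.044 and 0.0442, 2 of 10 members beside 17.3% of all genes. For 5-FU+ICB against 5-FU, edgeR called 0% of all genes, and Il18, Il33 and Il1r2 had an unadjusted p under 0.05, with log2 fold changes of 0.98, 0.66 and 0.97, beside 14% of all genes.

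For cisplatin+ICB against cisplatin, 0.146% of all genes were called. Il1a had a log2 fold change of 3.80 ± 0.89 (SE; adjusted p = 0.0706) and Il1rn of 2.06 ± 0.49 (SE; adjusted p = 0.0752), with 7 of 10 members at an unadjusted p under 0.05 beside 12.3% of all genes. Without the 3 tumors that stood apart, edgeR called 3 members in that comparison, beside 12.2% of all genes: Il1a (4.16, adjusted p = 0.00596), Il1rn (2.32, adjusted p = 0.0105) and Il18bp (2.72, adjusted p = 0.0149). Leaving out cisplatin+ICB replicate 1 alone gave the same count, beside 12.4% of all genes. Dropping replicate 3, the other tumor of that group with PBS-like Il1a, gave 2 calls, beside 1.23%.

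The single drugs were also set against each other. In 5-FU against cisplatin 0.362% of all genes were called, and Il1b was higher with 5-FU by 2.27 ± 0.61 (SE; adjusted p = 0.0885), Il33 by 1.22 ± 0.32 (SE; adjusted p = 0.0835) and Il1rn by 1.81 ± 0.49 (SE; adjusted p = 0.0925), short of the threshold in edgeR. The tumors of the 2 drugs did not overlap for 3 of 10 members, beside 12.5% of all genes, and DESeq2 called 5 members and 3.67% of the genes it tested there. In 5-FU+ICB against cisplatin+ICB 0.297% of all genes and 0 members were called.

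Whether the combination with ICB differed from the sum of its parts was tested as an interaction on the log2 scale. For 5-FU with ICB edgeR called 0 of 10 members and 0% of all genes. Il1a (-3.05 ± 1.09 SE, adjusted p = 0.378), Il1b (-2.48 ± 0.79 SE, adjusted p = 0.359), Il1rn (-2.18 ± 0.65 SE, adjusted p = 0.337) and Il18bp (-3.21 ± 0.88 SE, adjusted p = 0.337) had negative terms with unadjusted p under 0.05, from 0.00123 to 0.00991, beside 11.1% of all genes. DESeq2 called 1 of these, Il18bp (-3.29, adjusted p = 0.0477), beside 0.345% of the genes it tested. For cisplatin with ICB edgeR called 0% of all genes, and no member had an unadjusted p under 0.05, beside 9.16% of all genes.

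The balance between an antagonist and its partner was expressed as a log2 ratio of CPM within a tumor, for 3 ratios in 11 comparisons, with two-sided exact permutation tests and Benjamini-Hochberg adjustment over the 33 tests. No adjusted p was under 0.05, and the lowest was 0.105. With 5 tumors against 5 or 4 the test cannot go below 0.00794, and with 4 against 4 it cannot go below 0.0286. The ratio of Il1rn to Il1b was -0.27 ± 0.70 in PBS (SD, n = 4), 0.46 ± 0.37 in ICB (n = 5), 0.0853 ± 0.24 in 5-FU (n = 5), 0.49 ± 0.24 in cisplatin (n = 4), 1.31 ± 0.68 in 5-FU+ICB (n = 5) and 0.88 ± 0.79 in cisplatin+ICB tumors (n = 5). This ratio is not corrected for gene length and is read only between groups. Per kilobase, mean Il1b lay above mean Il1rn in every group. The levels were 53.3 and 24.3 CPM per kb with ICB and 31.4 and 25.1 with 5-FU+ICB. In 5-FU+ICB tumors it was above every PBS tumor, by 1.58 (exact permutation p = 0.0159, adjusted p = 0.105), and above every 5-FU tumor, by 1.23 (exact permutation p = 0.00794, adjusted p = 0.105). The 5-FU tumors lay below every cisplatin tumor in this ratio, by 0.41 (exact permutation p = 0.0238, adjusted p = 0.112).

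The ratio of Il18bp to Il18 is a ratio of CPM, not corrected for gene length, so it is read only between groups. Its log2 value ranged over 1.19 to 2.17 in PBS tumors and 4.77 to 5.34 in ICB tumors, a difference of means of 3.35 (exact permutation p = 0.00794, adjusted p = 0.105). The 5-FU tumors (2.54 to 4.78) and the cisplatin tumors (2.25 to 3.25) also lay wholly above PBS, by 1.95 (exact permutation p = 0.0159) and 1.09 (exact permutation p = 0.0286). Neither gene was called with cisplatin, and the adjusted p of the ratio was 0.116 in this exact permutation test. The 5-FU+ICB tumors ranged over 1.90 to 5.59 and the cisplatin+ICB tumors over 1.06 to 5.20. In each group the lowest value belonged to the tumor that stood apart, replicate 5 and replicate 1, and the other 4 tumors, at 3.68 to 5.59 and 3.39 to 5.20, lay wholly above PBS.

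The log2 ratio of the decoy receptor Il1r2 to the signaling receptor Il1r1, also of CPM, was -4.72 ± 0.29 in PBS and -2.93 ± 0.72 in ICB tumors, with no overlap, a difference of 1.79 (exact permutation p = 0.0159, adjusted p = 0.105). Group means were -3.92 with 5-FU, -3.99 with cisplatin, -3.13 with 5-FU+ICB and -3.02 with cisplatin+ICB.

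**Figure D3:**
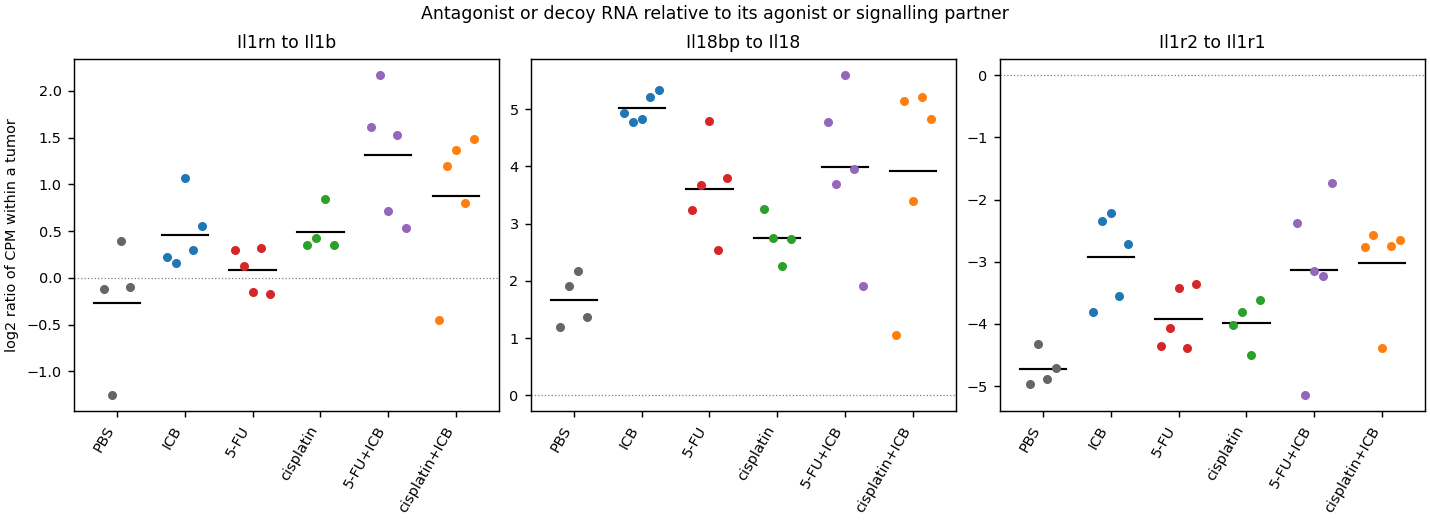
Log2 ratios of CPM within each tumor for Il1rn to Il1b, Il18bp to Il18 and Il1r2 to Il1r1. Points are tumors, bars are group means, colors are groups, and the dotted line marks equal CPM, not corrected for gene length. The ICB tumors form a tight group for Il18bp to Il18, between 4.77 and 5.34, while 5-FU+ICB runs from 1.90 to 5.59, or from 3.68 to 5.59 without replicate 5, which stood apart.

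Several lists of leukocyte and stromal markers moved with these genes, while others did not. The part of these markers in the results was not tested beyond the values given here. With ICB, B cell sums were 4.43, 4.69, 5.85, 7.19 and 14.9999 CPM, beside 12.9 to 15.6 CPM in PBS tumors. Fibroblast sums, given further on, overlapped between ICB and PBS tumors. Against PBS, ICB raised Ptprc, 6 of 6 macrophage, 5 of 5 T cell, 4 of 5 dendritic cell, 4 of 6 neutrophil and 2 of 4 monocyte markers, beside 15.5% of all genes. Summed macrophage markers ranged over 1349 to 2059 CPM in PBS, 2802 to 7724 in ICB and 1811 to 6221 in 5-FU tumors. With cisplatin they were 847 to 1913, with 5-FU+ICB 1460 to 6605 and with cisplatin+ICB 1726 to 3132 CPM. Neutrophil sums were 9.32 to 18.6 CPM in PBS, 60.4 to 168 in ICB and 15.3 to 65.4 in 5-FU tumors. With cisplatin they were 17.1 to 34.4, with 5-FU+ICB 8.68 to 73.3 and with cisplatin+ICB 36.5 to 110 CPM. T cell sums lay above PBS (19.6 to 26.3) with 5-FU (29.9 to 339), but not with cisplatin+ICB (18.6 to 286). Summed mesothelial markers, mostly Msln except in 5-FU+ICB replicate 5, ranged over 273 to 361 CPM in PBS, 54.6 to 218 in ICB, 46.8 to 178 in 5-FU, 37.8 to 169 in 5-FU+ICB and 133 to 665 in cisplatin+ICB tumors. Summed skeletal muscle markers ranged over 88.0 to 153 CPM in PBS, 0.731 to 2909.7 in ICB, 6.11 to 1212 in 5-FU, 1.18 to 3922 in 5-FU+ICB and 41.6 to 792 in cisplatin+ICB tumors. None of these leukocyte markers was at 0 in every tumor of a group. When libraries were scaled to Ptprc in place of TMM, edgeR still called Il1a (2.44, adjusted p = 0.00248), Il1rn (1.05, adjusted p = 0.0309) and Il18bp (2.09, adjusted p = 0.00195) higher with ICB, beside 1.54% of all genes called higher on that scale, while Il33, Il1r2 and Casp1 changed sign. On that scale edgeR called 5 of 10 members lower in ICB against PBS, beside 74.2% of all genes. These were Il18 (-1.30, adjusted p = 0.0044), Il33 (-1.09, adjusted p = 0.0222), Il1r1 (-2.23, adjusted p = 0.00195), Nlrp3 (-1.58, adjusted p = 0.0384) and Casp1 (-1.33, adjusted p = 0.0222). Under that scaling the median of all genes moved from -0.0593 to -1.99.

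For 5-FU+ICB the same 3 genes stayed called on the Ptprc scale, Il1a at 2.01 (adjusted p = 0.0131), Il1rn at 1.25 (adjusted p = 0.0177) and Il18bp at 1.62 (adjusted p = 0.0118). On that scale 2.34% of all genes were called higher and 62.4% lower in 5-FU+ICB against PBS, and the 3 of 10 members called lower were Il18 (-0.91, adjusted p = 0.0405), Il1r1 (-1.40, adjusted p = 0.0243) and Nlrp3 (-1.70, adjusted p = 0.0333). Against PBS this combination raised Ptprc, 4 of 6 macrophage, 5 of 5 T cell, 3 of 3 B cell and 3 of 3 endothelial markers, beside 18.9% of all genes. The B cell sum was 589 CPM in 5-FU+ICB replicate 5 and 8.03 to 19.2 CPM in the other 4, beside 12.9 to 15.6 CPM in PBS tumors, so the sum stood far above PBS in 1 tumor. Neither 5-FU alone nor cisplatin+ICB kept any member called on the Ptprc scale, where 0.0216% and 0.124% of all genes were called, and the median of all genes was then -0.83 and -1.02. Ptprc itself was not called in either of these comparisons.

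Il33 is made largely by stromal cells, so fibroblast and endothelial markers are set beside it, with mast cell and basophil markers. Mast cell and basophil sums were 10.0 to 18.4 CPM in PBS, 9.75 to 88.2 in ICB and 33.9 to 120 in 5-FU tumors. They were 19.0 to 40.7 CPM with cisplatin, 19.2 to 140 with 5-FU+ICB and 18.4 to 69.8 with cisplatin+ICB. Summed fibroblast markers (Col1a1, Col1a2, Pdgfra, Dcn and Lum) ranged over 1576 to 4997 CPM in PBS, 2263 to 5163 in ICB, 5119 to 9258 in 5-FU, 2454 to 4778 in cisplatin, 4062 to 6917 in 5-FU+ICB and 858 to 3798 in cisplatin+ICB tumors. The fibroblast sums of all 5-FU tumors lay above those of all PBS tumors, as did their Il33. Summed endothelial markers ranged over 60.6 to 119 CPM in PBS, 121 to 242 in ICB, 121 to 278 in 5-FU, 66.6 to 94.9 in cisplatin, 145 to 589 in 5-FU+ICB and 25.6 to 148 in cisplatin+ICB tumors, and the ICB, 5-FU and 5-FU+ICB sums lay wholly above PBS. All of these markers were detected in every group. Against PBS, 0 of 5 fibroblast markers were called with ICB, 5-FU or cisplatin+ICB, and 1 of 5 with 5-FU+ICB. Of the 18521 genes, 5183, 825, 807 and 5812 were called in these comparisons. Against ICB, where Il33 rose, 5-FU+ICB changed 0 of 5 fibroblast and 0 of 3 endothelial markers, raised 1 of 3 B cell markers and lowered 1 of 4 monocyte markers. Only 50 of the 18521 genes were called there, so 0 calls in so short a list is no result about stromal markers. Only replicate 5 of 5-FU+ICB stood far above the ICB tumors in its B cell sum (589 CPM, beside 4.43, 4.69, 5.85, 7.19 and 14.9999 CPM in ICB tumors).

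**Figure D4:**
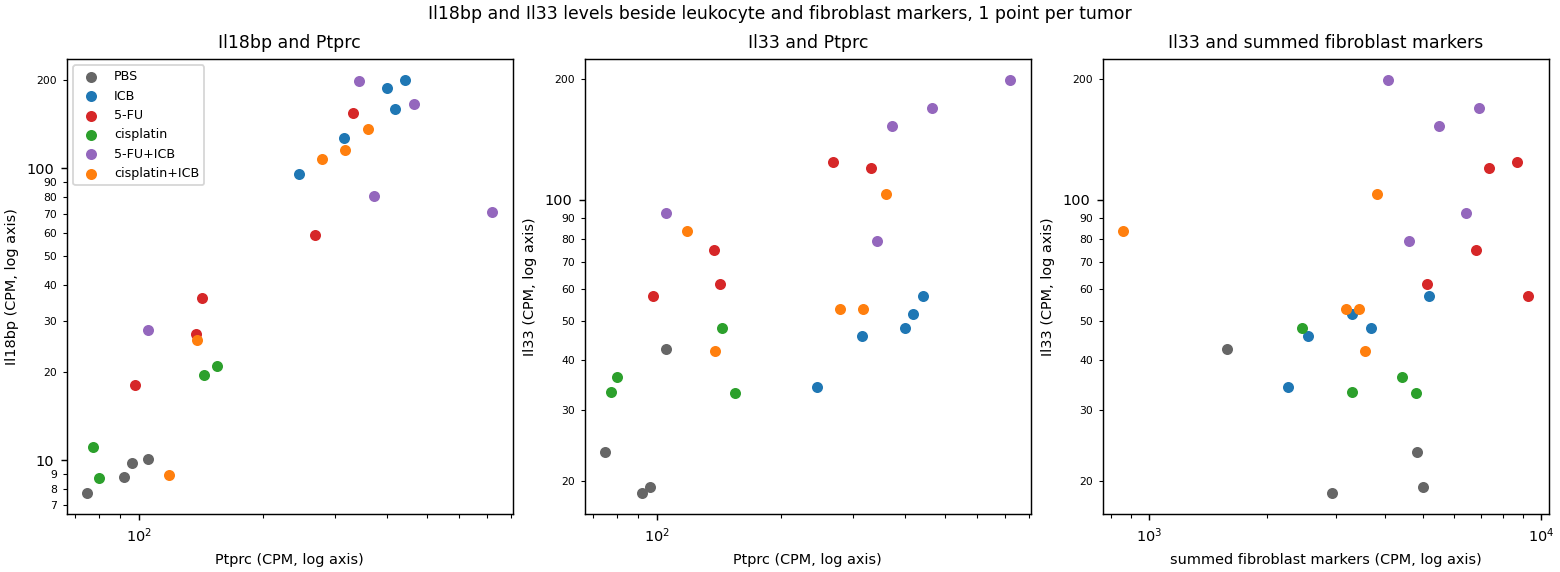
Il18bp against Ptprc, Il33 against Ptprc, and Il33 against the summed fibroblast markers, 1 point per tumor, all in TMM-scaled CPM on log axes and colored by group. ICB and 5-FU+ICB tumors overlap in Ptprc (245 to 443 and 105 to 723 CPM), but their Il33 levels do not (34.2 to 57.6 and 79.1 to 199 CPM).

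Members were also compared within treatment groups. Pearson's r was taken over the 28 tumors after subtracting each group's mean log2 CPM, for 45 pairs, with a two-sided permutation test (100000 resamples, smallest possible p 1e-05) and Benjamini-Hochberg adjustment. Pairs with an adjusted p under 0.05 numbered 13 with a positive and 2 with a negative r. Il1a, Il1b, Il1rn, Il1r2 and Il18bp held most of the positive pairs. Il1b went with Il1rn (r = 0.81, rho = 0.78, permutation p = 2.00e-05, adjusted p = 0.000675) and with Il1r2 (r = 0.81, rho = 0.75), and Il1a with Il1rn (r = 0.81, rho = 0.75) and with Il1b (r = 0.74, rho = 0.76). Il18bp went with Il1rn (r = 0.78, rho = 0.78) and Il1a (r = 0.71, rho = 0.62). For each pair, the 2 tumors farthest from the median in 1 of its genes were also left out. That gene was Il1b, Il1b, Il1a, Il1a, Il1rn and Il1a in the same order. These 6 values of r were then 0.75, 0.69, 0.76, 0.84, 0.77 and 0.63.

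Il18 and Il33 went with each other (r = 0.63, rho = 0.69) and with Il1r2 (r = 0.73, rho = 0.68 for Il18 and r = 0.71, rho = 0.75 for Il33). With Il18bp, r was 0.32 for Il18 and 0.27 for Il33, and 0.72 and 0.53 without the 3 tumors that stood apart. With Il1rn, r was 0.24 for Il18 and 0.36 for Il33, and 0.49 and 0.53 without them. Nlrp3 ran against both Il18 and Il33. Its r with Il18 was -0.68 (rho = -0.63, permutation p = 0.00026, adjusted p = 0.00234), -0.55 without the 2 tumors farthest from the median in Il18 and -0.63 without the 3 that stood apart. With Il33 it was -0.60 (rho = -0.60, permutation p = 0.00184, adjusted p = 0.00753), and -0.59 without those 3. Casp1 and Il1r1 were related at r = 0.49, which dropped to 0.31 without the 3 tumors. The tumors share composition and scaling across genes, whose part in these values was not tested.

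**Figure D5:**
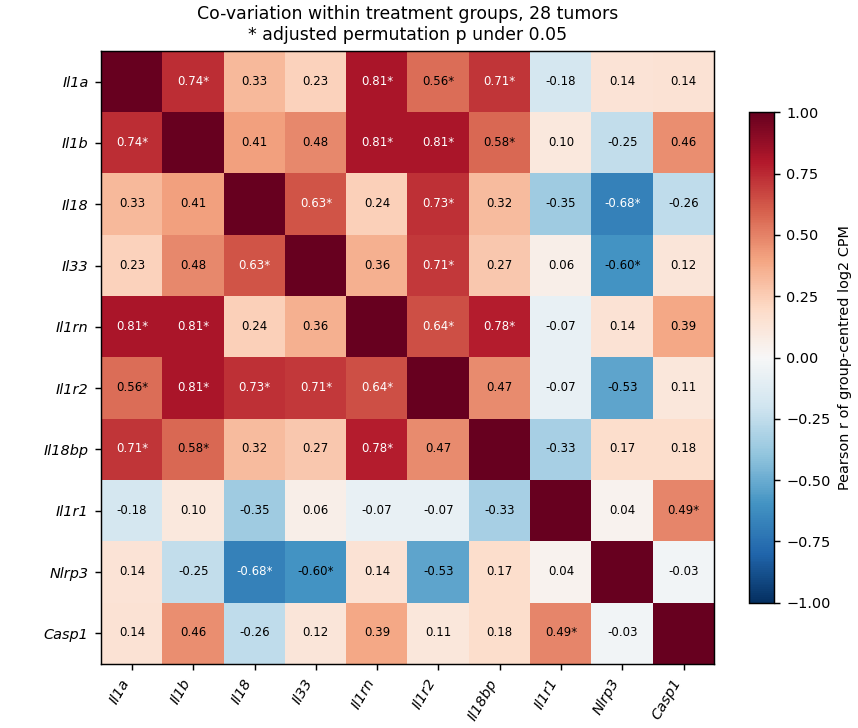
Pearson's r between each pair of the 10 genes over 28 tumors, on log2 CPM (prior count 2) after subtracting the group mean. Color runs from -1 to 1, and asterisks mark pairs with an adjusted permutation p under 0.05. Values of 0.81 join Il1b with Il1rn and Il1r2, and Il1a with Il1rn. Il1r2 is at 0.73 with Il18 and at 0.47 with Il18bp, and the lowest value is -0.68 between Il18 and Nlrp3.

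Genes outside the family whose log2 CPM followed each member most closely over the 28 tumors, among 14405 genes with a mean of at least 1 CPM, are given by Pearson's r as a description with no test. Il1a was followed by Slc15a3 (0.96), Ccrl2 (0.95) and Sp110 (0.95), and Il1rn by Ccrl2 (0.97), Tnf (0.97) and Hcar2 (0.96), which include the cytokine Tnf. For Il1b the nearest were Atf3 (0.91), Tlr2 (0.89) and Hcar2 (0.89), of which Tlr2 is a receptor for bacterial lipoproteins. Il18bp was followed by Entpd1 (0.98), Acvrl1 (0.98) and Nrgn (0.97), and Il33 by Saa3 (0.94), Ptx3 (0.89) and Maob (0.89), where Saa3 and Ptx3 encode acute phase proteins. Il18 was nearest to Rasl12 (0.94), Tspan13 (0.93) and Epsti1 (0.92), and Il1r2 to Hebp2 (0.94), Hopx (0.92) and Srgn (0.91). For Casp1 they were the interferon-inducible genes and cytokine Ifi202b (0.88), Ifi204 (0.87) and Il15 (0.86). Nlrp3 was nearest to Rest (0.95), 5830417I10Rik (0.94) and Mafg (0.94), and Il1r1 had the weakest neighbors, A4galt (0.80), Tfpi (0.78) and Mill2 (0.77). These values mix differences between groups with those within groups.

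Other genes of the pathway were followed through lists chosen for their roles. The share of all genes called higher against PBS was 15.5% with ICB, 2.84% with 5-FU, 18.9% with 5-FU+ICB and 3.42% with cisplatin+ICB. In either direction, 5183 of the 18521 genes were called with ICB and 5812 with 5-FU+ICB. Single genes called lower are therefore not read as traits of the lists. Of 16 tested receptors and adaptors, ICB raised 9 and lowered 1, where the list's median log2 fold change was 0.67 against -0.0593 for all genes, and 6 of these 10 changed sign when scaled to Ptprc, where 0 were called higher and 11 of 16 lower, beside 74.2% of all genes lower. Il18r1, which binds IL-18, rose by 2.78 ± 0.64 (SE; adjusted p = 0.00403), and Irak3, a kinase-like brake on the pathway, by 2.37 ± 0.54 (SE; adjusted p = 0.00382). Il1rl1, which encodes the IL-33 receptor ST2, rose from a mean of 157 to 419 CPM, by 1.42 ± 0.51 (SE; adjusted p = 0.0398), and its sign turned on the Ptprc scale. With 5-FU+ICB its mean was 384 CPM, which was not called (adjusted p = 0.0525). Sigirr, a receptor that dampens IL-1 signaling, fell, with -0.86 ± 0.27 (SE; adjusted p = 0.0226). 5-FU changed 0 of 16 (median 0.23 against -0.0142 for all genes). 5-FU+ICB raised 6 and lowered 1 (median 0.56 against -0.0549), again with Il18r1 at 3.36, Irak3 at 2.45 and Sigirr at -1.22, and 3 of the 7 changed sign on the Ptprc scale, where 1 was called higher and 10 of 16 lower, beside 62.4% of all genes lower. Cisplatin+ICB raised 3, namely Il18r1 (2.25), Irak2 (0.92) and Il18rap (0.72), of which 2 changed sign on the Ptprc scale and none stayed called (median 0.22 against 0.0306).

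Of 22 tested inflammasome sensors, adaptors and effectors, ICB raised 11, beside 15.5% of all genes, and lowered 1 (median 0.84 against -0.0593 for all genes), and 10 of the 12 changed sign on the Ptprc scale, where 0 were called higher and 13 of 22 lower, beside 74.2% of all genes lower. Ninj1, which ruptures the membrane of dying cells, rose by 2.37 ± 0.47 (SE; adjusted p = 0.00156), and the sensor gene Nlrc4 by 1.96 ± 0.41 (SE; adjusted p = 0.00243). Gsdme, a pore-forming gasdermin, fell, with -0.90 ± 0.29 (SE; adjusted p = 0.0231). With 5-FU 0 of 22 were called, beside 2.84% of all genes higher (median 0.0091 against -0.0142). 5-FU+ICB raised 4 of 22, close to the 18.9% of all genes, which were Panx1 (2.31), Ninj1 (1.97), Nlrc4 (1.38) and Casp4 (1.14), and lowered Gsdme (-0.99), with 2 of the 5 changing sign on the Ptprc scale, where 0 were called higher and 14 of 22 lower, beside 62.4% of all genes lower (median 0.25 against -0.0549). Cisplatin+ICB raised 2, beside 3.42% of all genes. These were Casp4 (1.17) and Nlrp12, which had a mean of 0.556 CPM and a PBS mean of 0.0794 CPM that lay under the floor, so no fold is given, and neither changed sign or stayed called on the Ptprc scale (median 0.54 against 0.0306).

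Genes known to respond to IL-1, many of which also respond to TNF and bacterial products, formed a further list. ICB raised 10 of 16 tested, beside 15.5% of all genes (median 1.66 against -0.0593 for all genes), of which 5 changed sign on the Ptprc scale, where 0 were called higher and 2 of 16 lower, beside 74.2% of all genes lower, led by the neutrophil chemokine genes Cxcl3 (3.20 ± 0.73 SE, adjusted p = 0.00403) and Cxcl2 (3.17 ± 0.93 SE, adjusted p = 0.0159). 5-FU alone raised 6, beside 2.84% (median 1.83 against -0.0142), where no member of the other pathway lists was called. These were Cxcl1 (3.52), Saa3 (3.22), Lcn2 (3.07), Nfkbiz (2.49), Cxcl5 (1.98) and Tnfaip3 (1.85), and on the Ptprc scale none changed sign but 0 of the 16 genes were called, beside 0.0216% of all genes. Their log2 fold changes there ran from 0.81 for Tnfaip3 to 2.56 for Cxcl1, and the median of the list was 0.79 against -0.83 for all genes. 5-FU+ICB raised 15 of 16, beside 18.9% (median 2.50 against -0.0549), 3 of which changed sign on the Ptprc scale, where 4 were called higher and 2 lower, beside 2.34% of all genes higher and 62.4% lower, with Lcn2, an iron-sequestering protein gene, at 4.72 ± 0.94 (SE; adjusted p = 0.0016) and Saa3 at 4.38 ± 0.75 (SE; adjusted p = 0.000855). Cisplatin+ICB raised 5, beside 3.42% (median 1.53 against 0.0306), among them Cxcl3 (2.98) and Saa3 (2.67), and on the Ptprc scale none changed sign and 0 of 16 were called.

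Against ICB alone, 5-FU+ICB raised 1 of these 16 genes, Csf3, the gene of the granulocyte growth factor G-CSF, from a mean of 0.177 to 1.72 CPM, a log2 fold change of 3.24 ± 0.60 (SE; adjusted p = 0.0209) at levels near the floor. 5-FU differed from cisplatin in 1, Nfkbiz (2.26 ± 0.50 SE, adjusted p = 0.0423). Of 5 further ligands of the family, only the gene named Il1f9 in the matrices (Il36g) passed the filter. It was higher with ICB (1.83 ± 0.46 SE, adjusted p = 0.00688) and with cisplatin+ICB (1.82 ± 0.46 SE, adjusted p = 0.0273), its sign with ICB changed on the Ptprc scale, and neither call held there. The summed level of the 5 ligands was 0.532 to 1.12 CPM in PBS tumors and 7.34 CPM in ICB replicate 2, the tumor with high keratinocyte markers, while the other 4 ICB tumors had 0.789 to 2.27 CPM. Cisplatin+ICB tumors had 1.59 to 4.37 CPM. Without ICB replicate 2 the rise of Il1f9 with ICB was 1.25 ± 0.40 (SE; adjusted p = 0.0348), and it was still called.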

How the data were processed

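The authors assigned the 100-base single-end reads to GRCm38/mm10 transcripts with kallisto (0.46.0, after bcl2fastq 2.20.0.422, per the submitters' processing notes) and summed transcripts per gene with tximport. They deposited the resulting estimated counts, which are not normalized. The 2 matrices share 9 PBS and ICB tumors with identical values and were joined. Of the deposited estimated counts, 23.7% were not whole and were rounded. Reads that fit several transcripts are divided by a model, and 26 gene names had been turned into dates, none of them a member.

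In R 4.3.3, edgeR 4.0.16 (filterByExpr, TMM, glmQLFit, glmQLFTest) was fitted to all 28 tumors and 6 groups without covariates. P-values were Benjamini-Hochberg adjusted over 18521 genes. A call needed an adjusted p under 0.05 with a log2 fold change above 0.5 in size. Standard errors came from the F statistic. Log2 CPM for correlations used a prior count of 2. Ratios were compared by two-sided exact permutation tests. The 10 members, the pathway and marker lists, the rule for the genes nearest to a member (the 3 with the highest Pearson's r) and the alternatives were chosen with earlier results of these data known. The labels name each tumor as a separate mouse, and give no library batch. No 2 libraries agreed within sampling noise (lowest chi-square per gene 17.6 between replicates).

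On simulated data at these group sizes (17995 genes, 200 of them with a log2 change of 2), edgeR recovered 66% of the changed genes, 5.04% of its calls were false, and a comparison without change gave 0 calls. Median depth was 28797552 counts, and the floor of 3 counts covers counting error only. Alternatives were DESeq2 1.42.0, its size factors, other filters on low counts, no fold change threshold, the replicate number as a block, Ptprc scaling, each matrix or the compared groups alone, a prior count of 0.5, and each tumor left out. Leaving out the 3 tumors that stood apart, and ICB replicate 2 for Il1f9, was added after seeing the data. RefSeq promoter windows matched 10 of 10 members.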

Additional observations from a re-analysis of the deposited data

Results flagged for a closer look

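In 60 sets of tumors (10 genes in 6 groups), 4 held a tumor whose distance from the others exceeded Dixon's limit, where chance gives about 1 in 20. Il1b in PBS replicate 2 was 49.2 CPM, beside 12.4 to 15.2 CPM in the other 3 PBS tumors, and without it the log2 fold change of Il1b in ICB against PBS was 2.88 instead of 2.17. Il1r2 in cisplatin+ICB replicate 3 was 4.10 CPM, beside 11.2 to 14.6 CPM in the other 4. Nlrp3 in 5-FU replicate 3 was 39.9 CPM, beside 71.4 to 81.4 CPM, and in 5-FU+ICB replicate 5 it was 14.8 CPM, beside 54.2 to 76.4 CPM. The last of these is the tumor with almost no Msln. No difference between groups in the effect of ICB passed edgeR's test of the interaction among the 10 members, while DESeq2 called Il18bp in the interaction of 5-FU with ICB (-3.29, adjusted p = 0.0477).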

How the results depend on the processing

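Among member values that were called, 166 kept direction and call under the alternatives other than leaving out a tumor, 28 kept their direction only and 5 reversed, while leaving out 1 tumor kept 147 and lost 52 calls with none reversed. Members called ranged from 5 to 7 without 1 tumor in ICB against PBS (7 with all tumors), 0 to 4 in 5-FU against PBS (3; 0 without PBS replicate 1), 5 to 7 in 5-FU+ICB against PBS (6), 0 to 5 in cisplatin+ICB against PBS (5; 0 without PBS replicate 1 or 4), 0 to 1 in 5-FU+ICB against ICB (1), 0 to 1 in 5-FU+ICB against 5-FU (0), 0 to 2 in 5-FU+ICB against cisplatin+ICB (0) and 0 to 3 in cisplatin+ICB against cisplatin (0). DESeq2 called 5 members and 2096 of all genes in 5-FU against PBS, and 3 and 445 in cisplatin+ICB against cisplatin. It called 5 and 663 in 5-FU against cisplatin, 1 and 1620 in 5-FU+ICB against cisplatin+ICB, and 1 and 72 in the interaction with 5-FU. Ptprc scaling left 0 members and 4 genes in 5-FU against PBS, 0 and 23 in cisplatin+ICB against PBS, and 0 and 16 in 5-FU+ICB against ICB. The compared groups alone gave 0 members and 0 genes in cisplatin+ICB against PBS and in 5-FU+ICB against ICB. In 5-FU against cisplatin they gave 4 and 943. Without the 3 tumors that stood apart there were 0 members and 40 genes in 5-FU+ICB against ICB. In cisplatin+ICB against cisplatin there were 3 and 2236. The cause was not tested.

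On the Ptprc scale, where the median of all genes also fell, 5 called and 43 uncalled member values reversed. Those with an unadjusted p under 0.05 after TMM scaling were -1.09 for Il33, -0.43 for Il1r2 and -1.33 for Casp1 with ICB, -0.0503 for Il1r2 with 5-FU, -0.57 for Il1b, -0.91 for Il18, -0.24 for Il1r2 and -0.94 for Casp1 with 5-FU+ICB, and -0.71 for Casp1 with cisplatin+ICB, all against PBS. Against 5-FU, 5-FU+ICB gave -0.28 for Il18, -0.15 for Il33 and -0.19 for Il1r2. Against cisplatin, cisplatin+ICB gave -0.11 for Il33 and -0.50 for Casp1, and 5-FU+ICB against cisplatin+ICB gave -0.0207 for Il18.

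The replicate numbers did not pair the tumors (median correlation of same-numbered deviations -0.07 to 0.17, lowest -0.63). As a block they left 1 member called in 5-FU against PBS and 2 in cisplatin+ICB against PBS, and turned the Il1r2 to Il1r1 ratio of 5-FU against cisplatin to -0.0645. Leaving out 1 tumor moved the uncalled difference in Il18bp to Il18 over -0.0296 to 0.89 in 5-FU+ICB against 5-FU and -0.66 to 0.58 in 5-FU+ICB against cisplatin+ICB, and that in Il1r2 to Il1r1 over -0.0968 to 0.20 in 5-FU against cisplatin, -0.55 to 0.30 in 5-FU+ICB against ICB, -0.45 to 0.40 in 5-FU+ICB against cisplatin+ICB and -0.32 to 0.24 in cisplatin+ICB against ICB. Of 30 genes named as nearest to a member, 10 were also named by Spearman's rho.

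Counts over all genes moved more. In 5-FU against PBS edgeR called 825 genes, 361 without a filter, 545 with at least 10 counts in every tumor, 162 with the block, 4 on the Ptprc scale, 3894 from the compared groups alone and 4115 from the 5-FU matrix alone, and DESeq2 called 2096. In cisplatin+ICB against PBS it called 807, 1758 with DESeq2, 445 without a filter, 226 with the block, 23 on the Ptprc scale, 0 from the compared groups alone and 6362 without the 3 tumors. In cisplatin+ICB against cisplatin it called 27, 2236 without the 3 tumors and 445 with DESeq2, 15 without a filter, and 0 with the block, on the Ptprc scale, or from the compared groups or the cisplatin matrix alone. In 5-FU+ICB against ICB it called 50, 272 with DESeq2, 0 from the compared groups alone and 16 to 19 with the filters, the block or Ptprc. In 5-FU against cisplatin it called 67, 663 with DESeq2 and 943 from the compared groups alone, 25 without a filter, 5 with the block and 4 on the Ptprc scale. In 5-FU+ICB against cisplatin+ICB it called 55, 1620 with DESeq2, 25 on the Ptprc scale, 5 without the 3 tumors and 0 from the compared groups alone. In 5-FU+ICB against 5-FU it called 0, 2 on the Ptprc scale or from the 5-FU matrix alone, and DESeq2 309. In cisplatin+ICB against ICB it called 0, 1 on the Ptprc scale, and DESeq2 47. In ICB against PBS Ptprc scaling called 14025 in place of 5183, and in 5-FU+ICB against PBS 11986 in place of 5812, where at least 10 counts in every tumor gave 3780. For the interaction with 5-FU it called 0, 16 from the 5-FU matrix alone, and DESeq2 72, and for that with cisplatin 0, and DESeq2 2. The cause of these shifts was not tested.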
